A study of Mus musculus with 4 samples.

Results

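The cytosolic ribosomal protein genes are the genes whose products, with ribosomal RNA, make up the ribosomes of the cytoplasm. They were taken from the deposited table by symbol alone, as every Rpl or Rps symbol with a number, Rplp or *Rpsa* form, without pseudogenes marked -ps and without the ribosomal S6 kinases, and 82 of 15298 listed genes met this rule. The 82 comprise 31 genes of the small subunit, 46 of the large subunit and 5 paralogs, namely *Rpl22l1*, *Rpl39l*, *Rpl7l1*, *Rps27l* and *Rps4l*. All 80 proteins of the standard mammalian set are listed, but 3 of them have other names and fall outside the rule. All members except *Rpl39l* had a log2 mean above 0 in each pair of libraries compared, which leaves 81 members for counts of genes past a threshold. The samples were peritoneal macrophages sorted as CD11b+, F4/80+ and Ly6G- from female BALB/c mice at 6 weeks of age, 1 library for each of 4 conditions. Microcurrent stimulation (MCS), a weak pulsed current through pads on abdomen and back under isoflurane, was given at zeitgeber time (ZT) 2, and control mice had the same handling without current. Cells were taken at ZT2, right after MCS, or at ZT14, in the dark period. The sources used here do not give the number of mice behind a library, and with 1 library per condition no difference below has a replicate check.

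A ribosome needs its proteins in near equal numbers, and their mRNAs are among the most abundant and shortest in a cell. Most of these mRNAs begin with a run of pyrimidines, the 5′ terminal oligopyrimidine (TOP) tract, through which the mTOR pathway controls their translation. In macrophages, the demand for ribosomes grows with activation and cell growth. Ribosomal protein genes have also left many processed pseudogenes, intronless copies made from mRNA, and reads from a gene and from a near-identical copy can be placed on either.

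For this reason the sequences of 4 genes are shown first, each beside the listed gene that shares most of its coding sequence. *Rpl26* (chr11:68901583-68906989, plus strand, 4 exons) makes a protein at the exit of the peptide tunnel. Its partner *Gm15772* (chr5:3236431-3236868, plus strand) is a processed pseudogene that spans the 438 bases of the coding sequence with 2 differences, C177T and T288C, where the base of the parent gene comes first and positions are counted from the A of the start codon. *Rpl30* (chr15:34440505-34443640, minus strand, 4 exons) and the processed pseudogene *Gm12191* (chr11:49678710-49679057, minus strand) differ at 1 of 348 bases, G96A. *Rpl34* (chr3:130726831-130730398, minus strand, 5 exons) and the processed pseudogene *Rpl34-ps1* (chr6:71124610-71124963, plus strand) differ at 2 of 354 bases, T132C and C318G. *Rps27* (chr3:90212522-90213651, minus strand, 4 exons) and *Rps27rt* (chr9:114982366-114982739, minus strand), annotated as a protein-coding gene, share all 255 coding bases. The longest identical runs are 176, 252, 185 and 255 bases in the same order. The stretches below are from GENCODE M21 on GRCm38, the assembly of mm10, read 5′ to 3′ on the coding strand, with the first differing base in capitals and none for the *Rps27* pair.
Rpl26: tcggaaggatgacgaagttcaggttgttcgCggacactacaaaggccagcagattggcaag
Gm15772: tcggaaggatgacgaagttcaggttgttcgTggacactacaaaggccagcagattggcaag
Rpl30: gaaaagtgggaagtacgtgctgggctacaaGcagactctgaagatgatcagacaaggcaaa
Gm12191: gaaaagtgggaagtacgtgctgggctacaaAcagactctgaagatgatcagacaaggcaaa
Rpl34: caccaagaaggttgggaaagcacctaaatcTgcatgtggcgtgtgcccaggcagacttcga
Rpl34-ps1: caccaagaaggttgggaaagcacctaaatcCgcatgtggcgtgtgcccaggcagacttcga
Rps27: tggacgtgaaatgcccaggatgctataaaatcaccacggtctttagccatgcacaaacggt
Rps27rt: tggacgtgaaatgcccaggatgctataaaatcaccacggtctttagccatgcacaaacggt

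In the deposited values, most reads of these 4 pairs lay on the copy. Of the reads of each pair, pooled over the 4 libraries, *Gm15772* held 97.3% beside *Rpl26* and *Gm12191* 97.2% beside *Rpl30*. *Rpl34-ps1* held 92.9% beside *Rpl34*, and *Rps27rt* 99.1% beside *Rps27*. Levels are given as read counts scaled to library size (CPM, the unit of all levels here). *Rpl26* itself was at 3.23 CPM in control at ZT2, 1.62 in MCS at ZT2, 5.93 in control at ZT14 and 19.0 in MCS at ZT14, which rest on 28, 14, 54 and 186 reads. *Gm15772* was at 273, 265, 300 and 266 CPM in the same 4 libraries, so its values were close together where those of *Rpl26* were not. *Rpl34* was at 15.2, 9.51, 14.2 and 27.5 CPM and *Rpl34-ps1* at 217, 192, 221 and 247 CPM, again in the order control ZT2, MCS ZT2, control ZT14 and MCS ZT14. *Rpl30* stayed between 6.95 and 9.74 CPM and *Gm12191* between 253 and 299 CPM. *Rps27* stayed between 2.54 and 3.25 CPM, whereas *Rps27rt* was at 335 (ZT2) and 388 CPM (ZT14) in control and at 279 and 258 CPM in MCS.

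**Figure D1:**
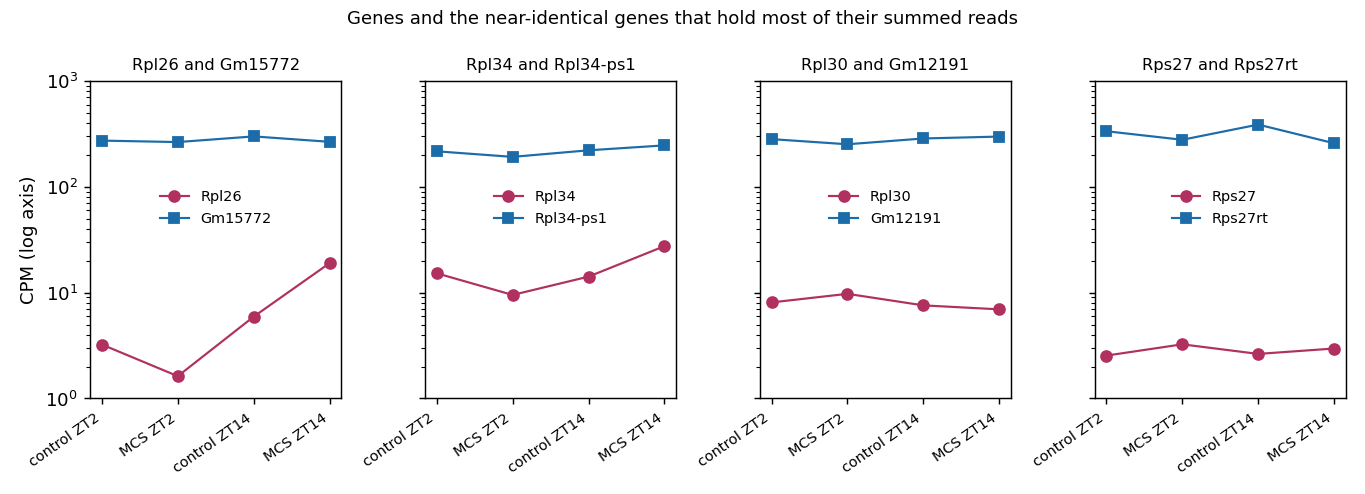
CPM (log axis) of 4 ribosomal protein genes (circles) and of the near-identical gene that holds most of the reads of each pair (squares) in the 4 libraries, 1 library per condition. *Rpl26* runs from 1.62 to 19.0 CPM while *Gm15772* stays between 265 and 300 CPM.

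Summed with its copy, each pair gave another MCS ratio than the gene alone. For *Rpl26*, the MCS to control log2 ratio, computed after adding 0.1 CPM to single values, at ZT14 was 1.66 for the gene and -0.10 for the sum (95% counting interval, an exact binomial interval on the reads, -0.18 to -0.02), and at ZT2 it was -0.95 for the gene and -0.05 for the sum (-0.14 to 0.03). For *Rpl34* at ZT14, the gene gave 0.95 and the sum 0.22 (0.14 to 0.30). For *Rpl30* at ZT2, the gene gave 0.27 and the sum -0.15 (-0.23 to -0.07). For *Rps27* at ZT14, the gene gave 0.16 from 24 and 29 reads, and the sum -0.58 (-0.65 to -0.51). *Rps27* and *Rps27rt* have no differing base in the coding sequence, so reads that lie within it cannot be told apart. The ratios of *Rpl26*, *Rpl34*, *Rpl30* and *Rps27* are therefore uncertain wherever they appear below.

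Near-identical genes, defined as at least 95% identical over at least 80% of the coding sequence, are annotated for 76 members and number 572 in all, with the most, 57, for *Rpl21*. In the table, 16 members had such a gene listed, 17 in total. For the other 12 of these members the near-identical genes held little, counting all of their reads. The highest share was 11.96%, for *BC004004*, annotated as a protein-coding gene, beside *Rpl21*. For *Rpl22l1*, the most divergent member described below, the copy *Gm15421* held 5.68%.

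Members summed to 29928 CPM in control at ZT2, 27499 in MCS at ZT2, 30155 in control at ZT14 and 35496 in MCS at ZT14. These sums were 2.99%, 2.83%, 2.98% and 3.49% of all reads, with an exact (Clopper-Pearson) 95% binomial interval of 2.982% to 3.004% in the first and similarly narrow ones in the others, which cover counting error only. The controls at both times lay close together, MCS at ZT2 lay below them and MCS at ZT14 above them. Against control, the log2 ratio of the sums in MCS was -0.12 at ZT2 (0.92-fold, 95% counting interval -0.13 to -0.11) and 0.24 at ZT14 (1.18-fold, 0.23 to 0.24). Small subunit genes summed to -0.15 and 0.27, large subunit genes to -0.10 and 0.21, and paralogs to -0.37 and 0.62, at ZT2 and ZT14. Without the 4 genes shown above, the values for all members stayed at -0.12 and 0.23.

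Over all 82 members, the median log2 ratio of MCS to control was -0.14 at ZT2, with a middle range (quartiles) of -0.29 to -0.02, and 0.23 at ZT14, with 0.03 to 0.41. Over all genes tested the medians were 0.0048 (12612 genes) and 0.0039 (12368 genes). Of the 81 members with a log2 mean above 0, 64 were below 0 and 17 above 0 at ZT2, and 19 were below and 62 above at ZT14. Of all genes tested, 50.6% and 50.4% were above 0. In 56 of 81 members (69.1%), MCS at ZT14 was above and MCS at ZT2 below both controls, an order that 15% of all genes tested had. The reverse order, MCS at ZT14 lowest and MCS at ZT2 highest, was seen in 8 members (9.88%) and in 13.5% of all genes. With near-identical genes added to the members, these counts were 56 and 7, *Rpl26* leaving the first order and *Rpl30* passing from the second to the first.

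**Figure D2:**
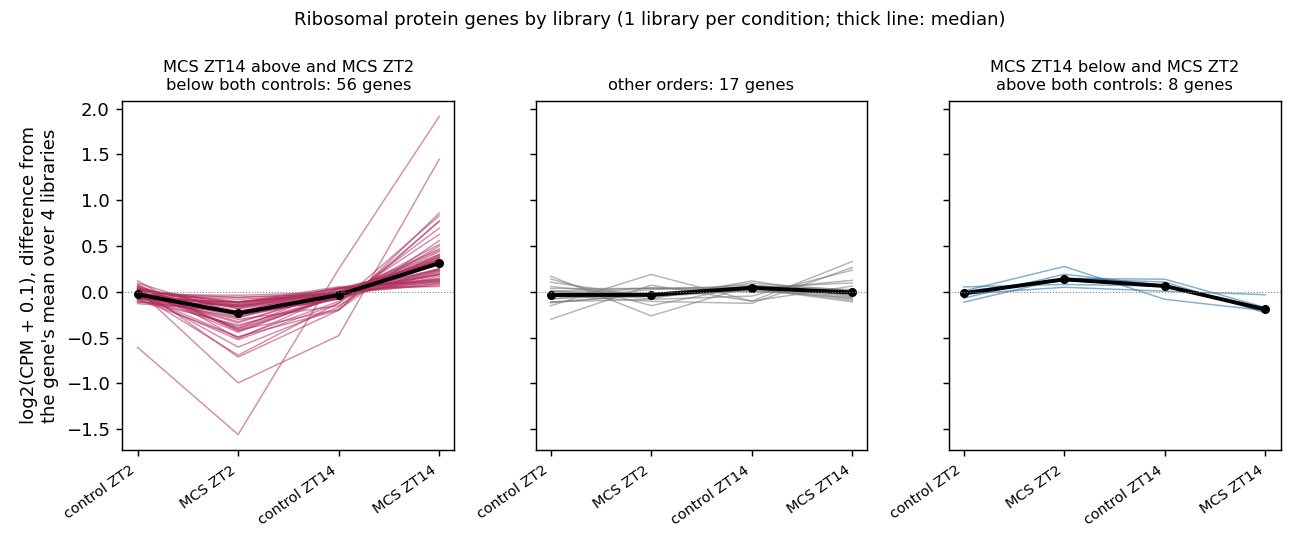
Each thin line is 1 of 81 ribosomal protein genes, drawn as log2(CPM + 0.1) minus the mean of that gene over the 4 libraries, and the thick line is the median. In 56 genes MCS at ZT14 lies above and MCS at ZT2 below both controls, 8 genes show the reverse, and 17 show neither.

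Library composition also differed between the libraries. The 10 macrophage marker genes summed to 26526 CPM in control at ZT2, 25652 in MCS at ZT2, 25712 in control at ZT14 and 28272 in MCS at ZT14. Most of each sum was *Lyz2*, at 17454, 17344, 17605 and 18847 CPM in this order. *Adgre1*, the F4/80 gene, was at 1327, 1086, 1361 and 1900 CPM. *Cd68* went the other way, at 285, 300, 299 and 215 CPM, and *Timd4* stayed between 412 and 442. Against control, 2 of the 10 were above 0 in MCS at ZT2 and 8 at ZT14, with median log2 ratios of -0.07 and 0.23. All 10 were present in every library, the lowest being *Gata6* at 69.1 CPM in control at ZT2. Of markers of other cells, 6 mast cell genes summed to 1821 and 2244 CPM at ZT2 and to 1184 and 954 at ZT14 (control, then MCS), and 6 listed B cell genes to 1224, 1147, 1479 and 1040 CPM in the order control ZT2, MCS ZT2, control ZT14 and MCS ZT14. Red blood cell genes were at 3.23, 36.7, 1.32 and 112 CPM, 8 neutrophil genes at 17.3, 86.8, 20.9 and 11.96, and 2 listed eosinophil genes at 6.58, 17.98, 1.98 and 48.0. Markers of T cells (7 listed genes) lay between 36.9 and 57.1 CPM, of natural killer cells (6) between 18.5 and 47.2, of dendritic cells (6) between 56.7 and 96.1, and of mesothelial cells and fibroblasts (10) between 8.35 and 32.9, each highest in MCS at ZT2. *Rn45s*, the ribosomal RNA precursor, took 6.18%, 4.47%, 6.52% and 6.40% of the reads in the same order. The part of these differences in the ribosomal protein values was not tested, and in bulk samples fewer cells of a type and less RNA per cell cannot be told apart.

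At ZT2, 1 member, *Rpl22l1*, passed an absolute log2 ratio of 1, beside 2.21% of all genes tested. No member was higher in MCS by more than 0.5, beside 5.58% of all genes. Lower by more than 0.5 were 7 members, *Rpl22l1*, *Rpl26*, *Rpl34*, *Rpl39*, *Rplp1*, *Rps27l* and *Rps29*, or 8.64% beside 4.86% of all genes, and *Rpl26* and *Rpl34* were not among them with near-identical genes added, which left 5. At ZT14, 3 members passed 1, *Rpl22l1*, *Rpl26* and *Rpl39*, or 3.70% beside 3.4% of all genes, and 2 of these, without *Rpl26*, passed with near-identical genes added. Higher by more than 0.5 were 12 members (14.8%, beside 8.68% of all genes), and none was lower by more than 0.5, beside 8.02% of all genes. With near-identical genes added, 10 were higher, without *Rpl26* and *Rpl34*, and 1 was lower, *Rps27* at -0.58. Among the 12 were *Rpl22l1*, *Rpl26*, *Rpl34*, *Rpl39*, *Rpl9*, *Rplp1*, *Rplp2*, *Rps14*, *Rps19*, *Rps27a* and *Rps9*. The share past 1 was thus near that of all genes, and the members differed from all genes mainly in the direction of small ratios.

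*Rpl22l1*, a paralog of the large subunit protein gene *Rpl22* that binds RNA, had the largest ratios of all members in both MCS comparisons. It was at 14.2 CPM in control at ZT2, 6.96 in MCS at ZT2, 9.996 in control at ZT14 and 38.2 in MCS at ZT14, from 123, 60, 91 and 374 reads. The library of MCS at ZT14 stood above the other 3 and that of MCS at ZT2 below them. Its log2 ratio to control was -1.02 at ZT2 (-1.50 to -0.57) and 1.93 at ZT14 (1.60 to 2.28). Its parent *Rpl22* was at 89.4, 74.2, 87.9 and 94.3 CPM in the same order, with log2 ratios of -0.27 (-0.42 to -0.11) and 0.10 (-0.04 to 0.24).

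*Rpl39*, a very small protein of the tunnel wall, was at 156 CPM in control at ZT2, 91.6 in MCS at ZT2, 131 in control at ZT14 and 272 in MCS at ZT14. Its log2 ratio was -0.76 at ZT2 (-0.89 to -0.64) and 1.06 at ZT14 (0.96 to 1.16). *Rplp1*, an acidic protein of the stalk, was at 307, 202, 274 and 523 CPM, with -0.60 (-0.69 to -0.52) and 0.94 (0.87 to 1.01). Both genes had the order seen in *Rpl22l1*, at levels where counting error is small. *Rps27a*, which encodes ubiquitin fused to a small subunit protein, was at 228, 172, 210 and 413 CPM and gave -0.41 (-0.51 to -0.31) and 0.97 (0.89 to 1.05). *Rps19*, a small subunit protein needed for the maturation of its RNA and known for its mutation in Diamond-Blackfan anaemia, was at 293, 211, 277 and 490 CPM and gave -0.48 (-0.57 to -0.39) and 0.82 (0.75 to 0.89). *Rpl9* gave -0.47 and 0.73, and *Rps9* -0.26 and 0.65. *Rps29*, a zinc-binding small subunit protein, was at 307, 198, 278 and 375 CPM, so its ratio at ZT2, -0.63 (-0.72 to -0.54), was larger in size than at ZT14, 0.43 (0.36 to 0.50).

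**Figure D3:**
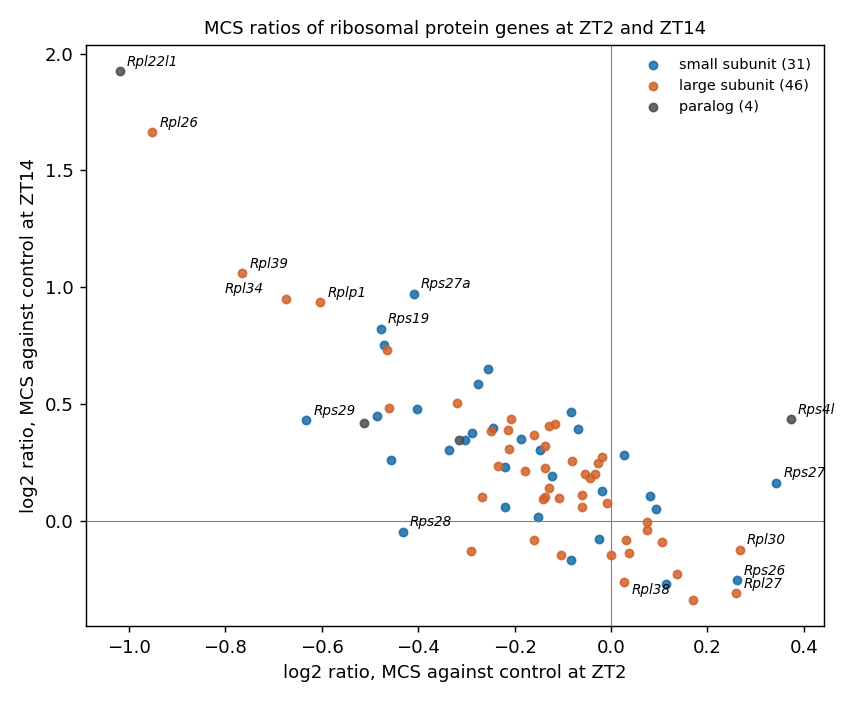
Log2 ratio of MCS to control at ZT2 (x axis) and at ZT14 (y axis) for 81 ribosomal protein genes, coloured by subunit, each ratio from 1 library per condition. Most genes lie to the left of 0 and above 0, with *Rpl22l1* at the upper left (-1.02, 1.93), and a smaller group around *Rpl38* and *Rpl27* lies to the right and below.

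A smaller set of members had the opposite pattern. *Rpl38*, a large subunit protein studied for its part in the translation of Hox mRNAs, was at 241 CPM in control at ZT2, 271 in MCS at ZT2, 263 in control at ZT14 and 208 in MCS at ZT14, with log2 ratios of 0.17 (0.08 to 0.26) and -0.34 (-0.42 to -0.25). *Rpl27* was at 110, 132, 131 and 106 CPM, with 0.26 (0.13 to 0.38) and -0.31 (-0.43 to -0.19). *Rps26*, which lies at the mRNA exit, was at 270, 323, 296 and 248 CPM, with 0.26 (0.18 to 0.34) and -0.25 (-0.33 to -0.17). *Rps24* gave 0.11 (0.06 to 0.16) and -0.27 (-0.32 to -0.22). The other members with MCS at ZT2 above and MCS at ZT14 below both controls were *Rpl21*, *Rpl28*, *Rpl29* and *Rpl30*. These ratios were all under 0.5 in size. The intervals of *Rpl30* and *Rpl29* included 0 at both times and that of *Rpl21* at ZT2, and the ratio of *Rpl30* at ZT2 turned negative with its copy added, as given above. Across the 79 members above a mean of 8 CPM, the MCS ratios at ZT2 and ZT14, which share no library, had a Spearman correlation of -0.72 and a Pearson correlation of -0.78, and across 9130 other genes of -0.30 and -0.20. These are descriptions across genes, which share the same 4 libraries and their scaling and are not independent replicates.

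By place in the ribosome, the P stalk, which recruits elongation factors, had the highest summed ratio at ZT14 of the groups with more than 1 member. The 3 stalk genes *Rplp0*, *Rplp1* and *Rplp2* summed to 1603, 1309, 1539 and 2254 CPM in control ZT2, MCS ZT2, control ZT14 and MCS ZT14, a log2 ratio of -0.29 (-0.33 to -0.26) at ZT2 and 0.55 (0.52 to 0.58) at ZT14. Within it, *Rplp0*, the stalk base, gave -0.21 and 0.44, *Rplp2* -0.32 and 0.50, and *Rplp1* the values above. *Rpl5* and *Rpl11*, which bind 5S RNA and can hold back *Mdm2* when ribosome assembly fails, gave -0.05 and 0.20 and -0.18 and 0.22. The 9 genes of the peptide exit tunnel gave -0.06 (-0.08 to -0.03) and 0.12 (0.10 to 0.14) in sum, but ranged at ZT14 from -0.15 in *Rpl23a* and -0.14 in *Rpl35* to 1.06 in *Rpl39* and the uncertain 1.66 in *Rpl26*. *Rpl4*, which also reaches into the tunnel, gave 0.20 at ZT14 and *Rpl31* 0.10.

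The 6 genes at the mRNA entry and exit summed to -0.05 (-0.07 to -0.02) and 0.25 (0.22 to 0.27), with *Rps14* at 0.59, *Rps3* at 0.47 and *Rps2* at 0.39 on 1 side and *Rps28* at -0.05 and *Rps26* at -0.25 on the other at ZT14. *Rps28* had a ratio of -0.43 (-0.56 to -0.31) at ZT2, where *Rps2* was at -0.07. The X-linked genes differed among themselves as well. *Rps4x*, whose autosomal paralog is *Rps4l*, was at 672, 550, 626 and 813 CPM and gave -0.29 and 0.38, *Rpl10* gave -0.13 and 0.40, *Rpl39* the values above, and *Rpl36a* -0.29 (-0.41 to -0.17) and -0.13 (-0.24 to -0.01). *Fau* and *Rack1* (listed as *Gnb2l1*), which encode ribosomal proteins under other names, had ratios at ZT14 of 0.34 and 0.42.

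The other paralogs were expressed at low levels. *Rps27l*, a paralog of *Rps27* known as a target of p53, was at 21.7 CPM in control at ZT2, 15.2 in MCS at ZT2, 19.99 in control at ZT14 and 26.8 in MCS at ZT14, with log2 ratios of -0.51 (-0.85 to -0.19) and 0.42 (0.14 to 0.70). *Rpl7l1* was at 62.4, 50.1, 63.7 and 81.1 CPM, with -0.31 (-0.50 to -0.13) and 0.35 (0.19 to 0.50), close to its parent *Rpl7* with -0.14 (-0.20 to -0.08) and 0.32 (0.27 to 0.38). *Rps4l*, at 6.70 to 10.4 CPM, had intervals that included 0 at both times, and *Rpl39l*, with 2 to 7 reads in a library, was too low to compare. Of the 4 paralogs tested, *Rpl22l1* alone passed 1 in any of the 4 comparisons.

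Between times, control libraries differed little in these genes, whereas the MCS libraries differed in most. In control, the members summed to a log2 ratio of ZT2 to ZT14 of -0.01 (-0.019 to -0.0032) and their median was -0.01, against a median of -0.0028 over 12465 genes. None passed 1, beside 3.61% of all genes. *Rpl22l1* was higher by more than 0.5 (0.50, interval 0.10 to 0.91), beside 9.37% of all genes, and *Rpl26* lower (-0.86, -1.59 to -0.19), beside 5.98%. *Rpl39* (0.25) was the next highest and *Rpl27* (-0.25), *Rpl17* (-0.17) and *Rps7* (-0.17) the lowest of members with a log2 mean above 3.

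In MCS, the sum was lower at ZT2 than at ZT14 by a log2 ratio of -0.37 (0.77-fold, -0.38 to -0.36), and the median was -0.36 against 0.0053 over 12534 genes. Past 1 were 8 members, *Rpl22l1* (-2.44), *Rpl26* (-3.47), *Rpl34* (-1.52), *Rpl39* (-1.57), *Rpl9* (-1.12), *Rplp1* (-1.37), *Rps19* (-1.22) and *Rps27a* (-1.26), or 9.88% beside 5.83% of all genes. With near-identical genes added, *Rpl26* gave -0.10 and *Rpl34* -0.44, and 6 members passed 1. Lower by more than 0.5 were 32 members, 39.5% beside 10.7% of all genes, and none was higher by more than 0.5, beside 12.9%. The highest were *Rpl30* (0.48), which gave -0.22 (-0.30 to -0.14) with its copy added, *Rps26* (0.38) and *Rpl38* (0.38). The comparisons of time share their libraries with those of MCS, so they are no separate evidence for the pattern above.

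The levels of the genes, as mean CPM of the same libraries that the MCS comparisons use, were compared per length. The median member had 475 mean CPM per kb of transcript, with quartiles of 343 and 641. The highest were *Rpl41* (1250), the shortest coding sequence of the set with 78 nt, *Rps15* (1050), *Rpl10* (870), *Rps12* (853) and *Rpl13* (828). The lowest were *Rpl39l* (0.89), *Rps27* (8.25), *Rps4l* (10.6), *Rpl26* (14.2) and *Rpl30* (14.2). Summed with the copies shown above, *Rps27* came to 921 CPM per kb, *Rpl26* to 539, *Rpl30* to 505 and *Rpl34* to 491, within the range of the other subunit genes. *Rps20* (88.1) also stood low, and the annotated transcript used for its length has 3706 nt for a coding sequence of 360 nt. Each length is that of 1 annotated transcript, so the order of neighbours is approximate.

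**Figure D4:**
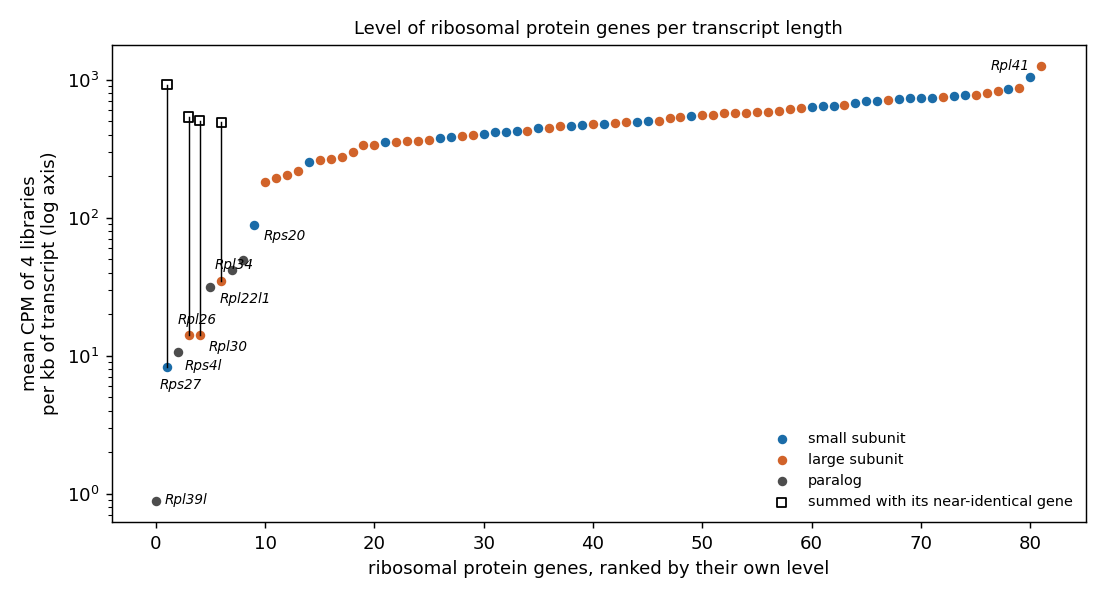
Mean CPM of the 4 libraries per kb of transcript (log axis) for the 82 genes in rank order, coloured by subunit, with open squares for the 4 genes after adding the near-identical gene. *Rps27*, *Rpl26*, *Rpl30* and *Rpl34* move from between 8.25 and 34.6 to between 491 and 921.

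The members' transcripts are short, with a median of 705 nt against 2651 nt over the 15130 listed genes that have one. Across 79 members, the MCS ratio at ZT14 had a Spearman correlation of 0.04 with transcript length, -0.02 with GC content, -0.23 with the number of annotated copies and -0.09 with mean CPM. At ZT2 these correlations were 0.24, 0.23, 0.16 and 0.33. Across 9087 other genes, the same ratio had a correlation of -0.28 with length, so shorter genes among them tended to be higher in MCS at ZT14. Of transcripts under 500 nt, 17 members had a median of 0.23 at ZT14 and 89 other genes 0.14. From 500 to 700 nt, 21 members were at 0.25 and 158 other genes at 0.12, and from 700 to 1000 nt, 23 members were at 0.19 and 327 other genes at 0.18. From 1000 to 1500 nt, 12 members were at 0.30 and 819 other genes at 0.10. Among transcripts of 1500 nt and over, 6 members were at 0.20 and 7694 other genes at -0.02. At ZT2, members under 500 nt had a median of -0.27 and other genes of that length -0.15. From 500 to 1500 nt, the medians of other genes at ZT2 lay between -0.04 and -0.02. Among other genes, shorter transcripts thus tended to be higher at ZT14, without a steady order below 1000 nt. At ZT2, mainly those under 500 nt stood apart. The part of length in the members' ratios was not tested.

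The sequence around the transcription start bears on the TOP tract. A run was counted where the annotated first base is C and at least 4 more C or T follow on the coding strand. Of 61 members with a start window in RefSeq (GRCm38.p6), 13 had such a run (21.3%), beside 351 of 11487 listed genes with a window (3.06%). For 21 members no window was given. The 30-base windows below, 15 bases before and 15 from the start on, show 4 members with a run, 2 with high and 2 with low ratios in MCS at ZT14, and 2 with no run but the highest ratios, of which that of *Rpl26* is uncertain and was -0.10 with its copy added. Capitals mark the run.
Rplp2 (chr7:141447636-141447665, plus strand): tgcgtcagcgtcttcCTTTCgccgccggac
Rps15a (chr7:118116133-118116162, minus strand): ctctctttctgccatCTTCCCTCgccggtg
Rpl38 (chr11:114668565-114668594, plus strand): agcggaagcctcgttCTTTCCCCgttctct
Rpl28 (chr7:4792950-4792979, plus strand): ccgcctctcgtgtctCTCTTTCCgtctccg
Rpl22l1 (chr3:28805493-28805522, plus strand): gtgcggcgcaagcccgttctcttcccacgg
Rpl26 (chr11:68901551-68901580, plus strand): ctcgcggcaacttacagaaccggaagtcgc
*Rplp2* and *Rps15a* had log2 ratios of 0.50 and 0.45 at ZT14, and *Rpl38* and *Rpl28*, with longer runs than *Rplp2*, had -0.34 and -0.23. Over the 13 members with a run the median at ZT14 was 0.26, ranging from -0.34 to 0.50, and over the 48 without it was 0.21, ranging from -0.31 to 1.93. At ZT2 the medians were -0.14 and -0.13. A window without a run says only that these letters do not start at the annotated base, which can lie some bases from the start in use.

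Other genes of translation differed in how far they went with the ribosomal proteins. All 7 genes of the elongation factor list were above 0 in MCS at ZT14, with a median of 0.34 and 1 past 0.5. The highest were *Eef1e1* at 0.62 (0.19 to 1.07) and *Eef2k* at 0.45. Both carry elongation factor names but do not encode elongation factors themselves. Lowest in the list were *Eef1a1*, which delivers aminoacyl-tRNA, at 0.17 and *Eef2*, which moves the ribosome along, at 0.12. *Eef1b2*, also in this list, gave 0.44 (0.36 to 0.53) at ZT14 and -0.31 (-0.40 to -0.21) at ZT2. Of 36 initiation factor genes 28 were above 0, with a median of 0.15 and none past 0.5 in either direction. *Eif6*, which keeps free large subunits apart from small ones, gave 0.46 and *Eif4g3* -0.23. Of 27 other genes with TOP mRNAs, 18 were above 0, with a median of 0.07, with *Pabpc1*, the poly(A)-binding protein, at -0.14 and *Hnrnpa1* at 0.96. At ZT2, the elongation factor list had a median of -0.09, initiation factor genes 0.00 and other TOP genes -0.05.

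Genes that build ribosomes were nearer to all genes. Of 85 ribosome biogenesis genes, 54 were above 0 in MCS at ZT14, with a median of 0.09, 3 higher and 1 lower by more than 0.5. *Nop16*, a nucleolar assembly factor, gave 0.85 and *Polr1c*, a subunit shared by RNA polymerases I and III, 0.64. The 17 genes of mTOR and of TOP mRNA control had a median of -0.08, with none past 0.5, *Rps6kb1*, an S6 kinase, at -0.40 and *Maf1*, a repressor of RNA polymerase III, at 0.34. At ZT2 their medians were -0.02 and 0.02.

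Lists of other housekeeping complexes were added after values had been seen. Of 38 proteasome subunit genes tested, 36 were above 0 at ZT14, with a median of 0.35, and the median at ZT2 was -0.24. The 36 NADH dehydrogenase subunit genes had medians of 0.34 at ZT14 and -0.15 at ZT2, 11 cytochrome oxidase subunit genes 0.28 and -0.09, 17 ATP synthase genes 0.24 and -0.20, and 77 mitochondrial ribosomal protein genes 0.12 and -0.05. The sign of the ribosomal protein medians at both times was thus also that of these other lists, and the proteasome medians were larger in size than those over all members.

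**Figure D5:**
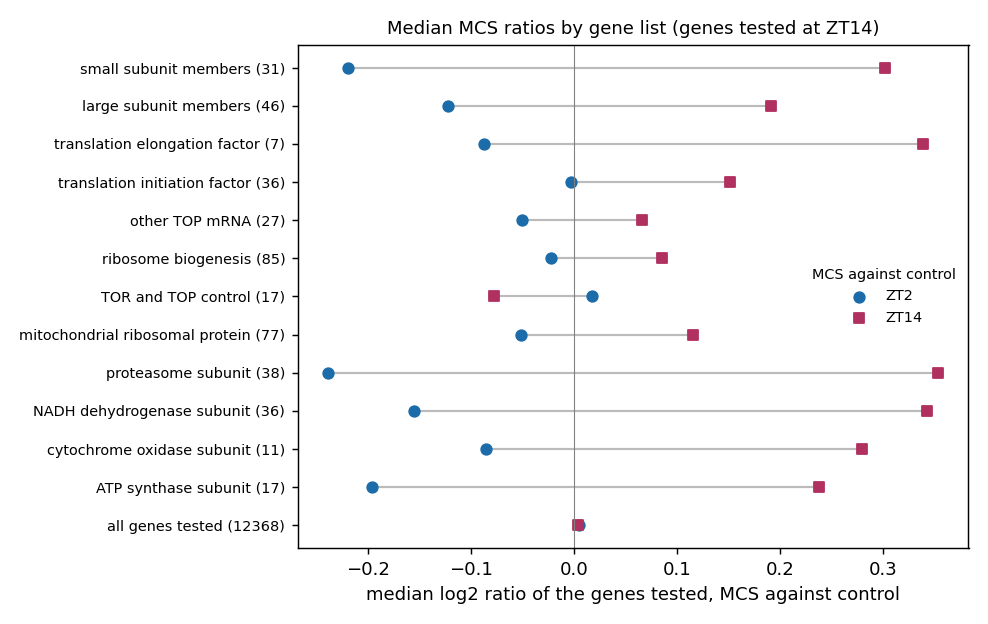
Median log2 ratio of MCS to control at ZT2 (circles) and ZT14 (squares) for the ribosomal protein genes by subunit, other gene lists and all genes tested, with the number of genes in parentheses. Proteasome and NADH dehydrogenase subunits lie at -0.24 and 0.35 and at -0.15 and 0.34, next to the small subunit genes at -0.22 and 0.30, while all genes lie near 0.

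A count test was run on the reads recovered from the CPM, which came out whole for 100% of values within 0.05 read. It fitted additive terms for time and MCS by edgeR's quasi-likelihood test with Benjamini-Hochberg adjustment, which leaves 1 residual degree of freedom and assumes the same MCS effect at both times. For MCS it called 24 of 12404 genes (0.193%) at an adjusted p of 0.05 and none of 81 members. An unadjusted p under 0.05 was found for 1 of 81 members (1.23%), *Rpl26*, and for 304 of all genes (2.45%). The ribosomal protein ratios had opposite signs at ZT2 and ZT14, which this model averages, so its MCS term does not measure the pattern described above. For time it called 295 genes (2.38%) and 1 member, the uncertain *Rpl26* (adjusted p = 0.000228), while 12 of 81 members (14.8%) and 1287 of all genes (10.4%) had an unadjusted p under 0.05. The time term likewise averages control and MCS, and it was negative (lower at ZT2) in the 12 members although several of them, such as *Rpl22l1* (0.50) and *Rpl39* (0.25), were higher at ZT2 in control.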

How the data were processed

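Peritoneal macrophage RNA was depleted of ribosomal RNA, made into directional libraries and sequenced on a DNBSEQ-G400. Per the submitters' processing notes and the study's methods, the authors trimmed reads with Trimmomatic 0.38, counted them with RSEM 1.3.0 and Bowtie 2 on mm10 and deposited CPM normalized by edgeR. The annotation and strand setting are not given in the sources used here, and the labels and methods name different RNA extraction kits. Dividing by the CPM of 1 read recovered 8365590 to 9953243 reads per library.

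Log2 ratios used a pseudocount of 0.1 CPM, and genes counted as tested had a log2 mean of both libraries above 0. Thresholds were an absolute log2 ratio of 1, as in the study, and 0.5. Intervals at 95% (exact binomial on both libraries' reads, given their total) reflect counting error alone. Having 1 library per condition, the design allows no replicate-based test, beyond edgeR's count test, fitted to recovered reads where a gene had 40 or more over the 4 libraries (edgeR 4.0.16, R 4.3.3). Transcript lengths came from GENCODE M21 (principal coding transcript) and near-identical genes from blastn 2.17.0. Named genes were the 3 highest and lowest members per comparison, the 5 highest and lowest per kb, paralogs, members of the role lists, members with copies holding at least 20%, genes in the study's tables and the 2 highest and lowest of each other list. Other genes, among them the remaining members past a threshold, were named after their values were seen. The members, lists and tests were chosen with earlier results of these data known. Alternatives were other scalings, pseudocounts, minimum levels, summing with copies, and leaving out transcripts under 500 nt. The ratios and the count test were tested on simulated data. Scripts used Python 3.11.15 (matplotlib 3.10.9, scipy 1.17.1, pandas 2.3.3, numpy 2.4.6). Some genes are not reported here.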

Additional observations from a re-analysis of the deposited data

Results flagged for a closer look

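The summed ribosomal protein reads differed in direction between the times: MCS was below control at ZT2 and above control at ZT14, and the difference between the log2 ratios was 0.36. It was picked out because the sole libraries of each time moved opposite ways, and the difference was not tested, since each condition has 1 library.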

How the results depend on the processing

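No paired analysis was possible because each condition has 1 library, and for the same reason no library could be left out. Of the summed log2 ratios of the members, all kept their sign under the other scalings, with copies added and without short transcripts, except the sum for ZT2 against ZT14 in control, which went from -0.011 to 0.010 with the libraries rescaled to a median ratio of 1 and to 0.0018 with *Rn45s* left out of the totals. Other values that moved beyond counting error stayed near the main ones. The summed ratio without *Rn45s* was -0.105 for MCS at ZT2, 0.226 for MCS at ZT14 and -0.329 between times in MCS, it was -0.348 between times in MCS at a median ratio of 1, -0.113 for MCS at ZT2 without transcripts under 500 nt, and 0.223 for MCS at ZT14 with copies added. Without the 4 genes that have an abundant copy, a setting chosen after seeing the data, no sum left its interval. Of the members past 0.5 for MCS at ZT2, 3 in place of 7 remained without transcripts under 500 nt, since the others were left out. Between times in control, the 2 members past 0.5 became 0 with copies added, 1 at a pseudocount of 1 and 1 at a log2 mean above 3. The edgeR test called 0 members for MCS, in place of 7 at ZT2 and 12 at ZT14, and 1 for time, in place of 2 in control and 32 in MCS. The other 32 alternative counts of members past 0.5 were within 1.5 times the main ones. For MCS at ZT14 with copies added, that count held 10 higher and 1 lower member in place of 12 and 0. Of single members, the ratio of *Rpl26* in MCS at ZT14 turned from 1.66 to -0.10 with its copy added. Depth limits *Rps4l* and *Rpl39l*, whose intervals include 0 in both MCS comparisons. The intervals of *Rps27* and *Rpl30* alone also include 0 in both, but their copies held 99.1% and 97.2% of the reads of each pair. With the copy added, the interval was -0.65 to -0.51 for *Rps27* at ZT14 and -0.23 to -0.07 for *Rpl30* at ZT2.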
